A study of Mus musculus with 24 samples.

Results

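Resident fibroblasts keep up the collagen network of the healthy heart and are recognised by a set of surface receptors, transcription factors, small proteoglycans and secreted proteins. A group of 10 such genes was followed here in experimental autoimmune myocarditis (EAM), an inflammation of the heart muscle that follows immunization against cardiac myosin. They were Pdgfra, Tcf21, Dcn, Lum, Fbln1, Dpt, Pi16, Gsn, Scara5 and Dpep1. Members were chosen by symbol and matched to Ensembl identifiers, and 10 of 10 were found among the 41388 genes counted. In myocarditis and after injury, resident fibroblasts can take on an activated, matrix-producing state, and some of these genes are known to be lost in that state while others are kept. Several are not specific to fibroblasts: Gsn is widely expressed, also in muscle and in leucocytes, and Scara5 and Dpep1 are found in other organs.

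RNA was read as counts per gene in part of the heart from 24 male BALB/cAnNCrl mice, labelled Balb/c and wild type, that were 8 to 10 weeks old when immunized. EAM mice had been given a myosin heavy chain alpha peptide in supplemented complete Freund's adjuvant (SCFA) on days 0 and 7, with pertussis toxin (PTX) on day 0. Control mice had been given SCFA with PBS in place of the peptide, and PTX, so that adjuvant and toxin were common to all 6 groups. EAM and control hearts were taken on day 10 (D10), day 15 (D15) and day 21 (D21), with 4 hearts in each group. EAM hearts had been picked by the study, as far as possible, to show inflammation, so their levels are not those of every immunized mouse.

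The libraries held between 15814863 and 24980864 counted reads, and the lowest count of any of the 10 genes in any heart was 178 reads, for Tcf21. Some features of the libraries moved with the groups. Ptprc, the gene of the pan-leucocyte protein CD45, was at 15.0 to 29.4 CPM (counts relative to each library's total, scaled by TMM, which evens out differences in library composition) in D15 and D21 control hearts, at 243 to 305 CPM in D15 EAM hearts and at 48.9 to 228 CPM in D21 EAM hearts. At D10, 1 EAM heart, replicate 1, stood apart with 193.6 CPM of Ptprc, where the other 3 had 27.7 to 56.7 CPM and the controls 23.9 to 38.6 CPM. The 5 atrial genes examined (Myl7, Sln, Nppa, Myl4 and Dkk3) summed to 94.9 to 247.7 CPM in D21 EAM hearts and to 1820 to 2821 CPM in D21 controls, so the portion of heart sequenced held less atrial RNA in the D21 EAM group. The same sum was 623.5 to 2060 CPM in D10 EAM hearts and 242 to 550 CPM in D10 controls, and it overlapped at D15. The 4 D21 EAM libraries also carry another library code than the other 20 libraries, so at D21 this code and EAM cannot be told apart.

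In control hearts the 10 genes kept nearly the same order of level. Per kilobase of exon, over 12 control hearts, Gsn was highest at 596.4 ± 64.7 CPM per kb (SD, n = 12). Gsn encodes gelsolin, a protein that severs and caps actin filaments and also circulates in plasma. Dcn followed at 172.8 ± 26.9, Dpt at 116.6 ± 9.15, Lum at 71.4 ± 11.2, Fbln1 at 40.2 ± 6.02 and Dpep1 at 33.6 ± 5.08 CPM per kb. The lowest levels were those of Pi16 at 17.3 ± 3.36, Pdgfra at 9.94 ± 1.31, Scara5 at 8.66 ± 1.30 and Tcf21 at 6.73 ± 1.32 CPM per kb. Each gene was above the next in 12 of 12 control hearts, apart from Fbln1 over Dpep1 (11 of 12) and Scara5 over Tcf21 (10 of 12), whose ranges overlapped. The coefficient of variation between control hearts ran from 7.85% for Dpt to 19.6% for Tcf21.

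Control hearts of the 3 days were compared with each other. Few genes of the whole table passed, and none of the 10 genes did. Between control hearts of D15 and D10, 0 of 10 genes passed a false discovery rate (FDR) under 0.01 in edgeR's quasi-likelihood test, where 0.0919% of all genes did. Between D21 and D10 it was 0 of 10 against 0.257% of all genes, and between D21 and D15 it was 0 of 10 against 0% of all genes. The smallest adjusted p of a member in those comparisons was 0.421, and 1 of the 10 genes had an unadjusted p under 0.05, Dcn, with a log2 difference of -0.31 ± 0.14 (SE) in D15 against D10 controls, where 6.69% of all genes had one. In a fit of the 12 controls only, 2.59% of all genes passed between D21 and D10, and in DESeq2 1.27% did. In the main fit with 1 library left out that share was at most 0.0797%. The sum of the 5 atrial genes also differed between D10 controls (242 to 550 CPM) and D21 controls (1820 to 2821 CPM), so time and the portion of heart sequenced cannot be told apart in that comparison.

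The start regions of genes that moved apart at D15 are shown here for later reference. RefSeq start sites of the GRCm38.p6 assembly were held for 7 of the 10 genes, and those of Dcn, Lum and Scara5 were not used here. Each line gives the 250 bases before a start on the plus strand, 5′ to 3′, with the E-box letters CANNTG in capitals. The regions are chr5:75152001-75152250 for Pdgfra, where 0 of 9 GENCODE transcripts begin within 30 bases of the RefSeq start, chr2:35256109-35256358 for the first start of Gsn, where 2 of its 7 GENCODE transcripts begin that near, and chr8:123185985-123186234 for Dpep1, where 1 of 3 does.
Pdgfra: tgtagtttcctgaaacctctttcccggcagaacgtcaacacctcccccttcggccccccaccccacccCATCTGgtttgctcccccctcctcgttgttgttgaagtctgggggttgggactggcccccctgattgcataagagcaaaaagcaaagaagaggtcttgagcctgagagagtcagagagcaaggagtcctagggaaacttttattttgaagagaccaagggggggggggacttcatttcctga
Gsn: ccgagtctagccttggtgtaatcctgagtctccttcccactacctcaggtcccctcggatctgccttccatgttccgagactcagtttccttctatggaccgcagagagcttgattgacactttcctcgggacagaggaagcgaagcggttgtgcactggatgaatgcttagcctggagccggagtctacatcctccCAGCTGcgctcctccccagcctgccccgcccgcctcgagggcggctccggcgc
Dpep1: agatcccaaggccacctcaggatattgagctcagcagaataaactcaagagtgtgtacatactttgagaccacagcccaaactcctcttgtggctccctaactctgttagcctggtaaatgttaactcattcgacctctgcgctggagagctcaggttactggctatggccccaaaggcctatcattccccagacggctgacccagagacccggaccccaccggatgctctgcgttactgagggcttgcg
E-boxes are the letters that basic helix-loop-helix factors, the family of Tcf21, bind. The Pdgfra and Gsn regions held 1 E-box each and the Dpep1 region held 0, where 66.2% of 32851 promoters of this length had at least 1 on either strand. The letters GGAATG, which TEAD factors bind, were found once in the Dpep1 region and in neither of the others, and in 12.6% of all promoters. The AP-1 letters TGANTCA (6.75% of promoters), the GAS letters TTCNNNGAA (7.02%), the letters of the interferon-stimulated response element (2.98%) and TATAAA (12.4%) were found in 0 of these 3 regions. Both strands were searched for each motif, and no matches overlapped.

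At D15, when leucocyte RNA was highest, 1 of the 10 genes passed the test upward and 3 downward, and all genes were also split between the directions. Pdgfra rose, Gsn, Scara5 and Dpep1 fell, and the other 6 did not pass the test. Past an FDR under 0.01 in edgeR's quasi-likelihood test were 1 gene higher in EAM, against 33.2% of all 15693 genes tested, and 3 lower, against 31.1% of all genes. With a 2-fold change required as well, 2 were lower, Gsn and Scara5, against 12.9% of all genes, and 0 were higher, against 18.1% of all genes. The hearts of the groups did not overlap for 1 gene higher in EAM (34.5% of all genes) and for 3 lower (35.9%). The 10 genes' median log2 fold change was -0.03, beside 0.02 over all genes.

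**Figure D1:**
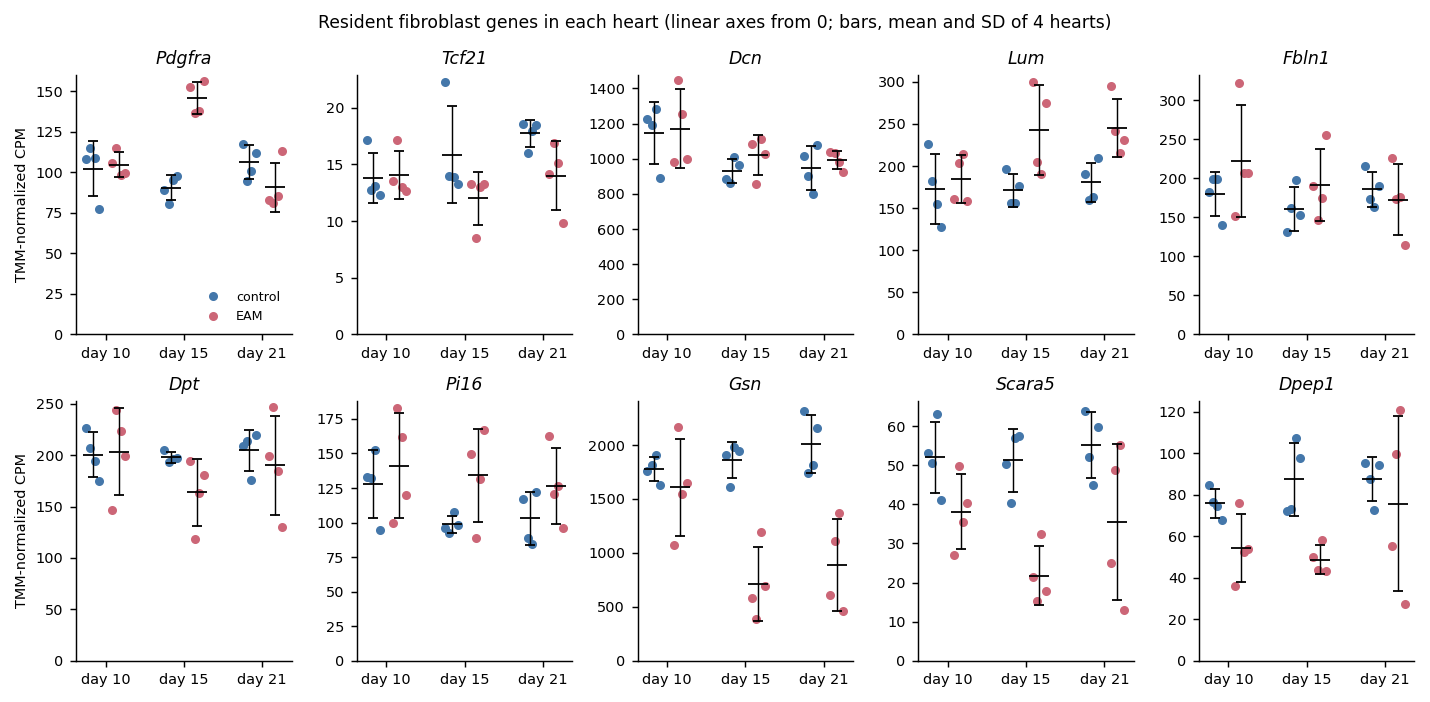
TMM-normalized CPM of each gene in every heart, by day, with control hearts in blue and EAM hearts in red; bars give the mean and SD of 4 hearts, and each axis starts at 0. At D15 the 4 EAM hearts lie above the controls for Pdgfra (136.7 to 156.2 CPM against 80.2 to 97.4) and below them for Gsn, Scara5 and Dpep1.

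Pdgfra, at chr5:75152292-75198215 on the plus strand (GRCm38, GENCODE M21, as for the positions that follow), encodes platelet-derived growth factor receptor alpha, which marks cardiac fibroblasts. In D15 EAM hearts it was at 152.2, 136.7, 137.6 and 156.2 CPM, and in D15 controls at 89.3, 80.2, 95.1 and 97.4 CPM. All 4 EAM hearts were above all 4 controls. The log2 fold change was 0.73 ± 0.08 (SE, n = 4 against 4), a 1.65-fold rise with a 95% interval from 1.45 to 1.88, and its adjusted p was 4.28e-05 in edgeR's quasi-likelihood test.

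Gsn, at chr2:35256380-35307892 on the plus strand, had the largest difference of the 10 genes at D15. EAM hearts had 581, 389, 1197 and 689 CPM, and controls 1904, 1611, 1984 and 1946 CPM. The groups did not overlap, and the EAM hearts were spread more widely than the controls, with replicate 3 highest and replicate 2 lowest. The log2 fold change was -1.35 ± 0.30 (SE), 2.54-fold lower in EAM, with an adjusted p of 0.00243 in edgeR's quasi-likelihood test. The Gsn call is close to the threshold. Without EAM replicate 1 the adjusted p was 0.0109 and without EAM replicate 4 it was 0.0101, with log2 fold changes of -1.23 and -1.30.

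Scara5, at chr14:65666403-65764826 on the plus strand, encodes a class A scavenger receptor that takes up ferritin. It was at 21.4, 15.2, 32.3 and 17.9 CPM in D15 EAM hearts and at 50.3, 40.3, 57.0 and 57.5 CPM in controls. No EAM heart reached the lowest control. The log2 fold change was -1.21 ± 0.22 (SE), 2.31-fold lower, and the adjusted p 0.000789 in edgeR's quasi-likelihood test. Dpep1, at chr8:123186242-123201812 on the plus strand, encodes a membrane dipeptidase that cleaves leukotriene D4. It was at 50.0, 43.6, 58.0 and 43.1 CPM in EAM hearts and at 72.3, 73.0, 107.1 and 97.4 CPM in controls. Here too the groups were apart, with a log2 fold change of -0.81 ± 0.15 (SE), 1.75-fold lower, and an adjusted p of 0.00089 in edgeR's quasi-likelihood test. In 1 fit of all 24 samples, which also tested 16318 genes in place of 15693, Dpep1 had a log2 fold change of -0.85 ± 0.29 (SE) and an adjusted p of 0.014.

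**Figure D2:**
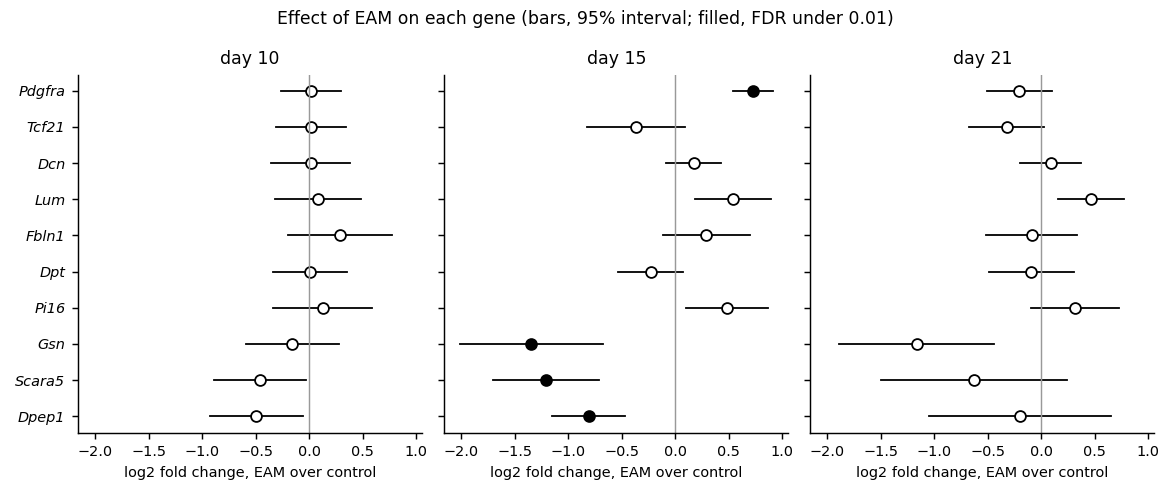
Log2 fold change of EAM over control hearts for each gene at D10, D15 and D21, with 95% intervals from edgeR's quasi-likelihood fit of that day's 8 hearts; filled points have an FDR under 0.01. At D15 Pdgfra is above 0 (0.73) and Gsn (-1.35), Scara5 (-1.21) and Dpep1 (-0.81) are below, and no point is filled at D10 or D21.

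The matrix and adventitial genes did not pass the threshold at D15. Dcn and Lum encode decorin and lumican, small leucine-rich proteoglycans that bind collagen fibrils. They are neighbours, at chr10:97479609-97518143 and chr10:97565128-97572703, both on the plus strand and 46984 bases apart. Lum was at 300.1, 204.5, 190.1 and 275.2 CPM in EAM hearts and at 196.9, 155.6, 156.1 and 176.0 CPM in controls. Only the lowest EAM heart, replicate 3, lay within the control range. The log2 fold change of Lum was 0.54 ± 0.16 (SE) and its adjusted p 0.0113 in edgeR's quasi-likelihood test. Lum passed the FDR of 0.01 in the likelihood ratio test (adjusted p 0.00272), in DESeq2 (0.00287), with library totals in place of TMM (0.0035), with 12 control hearts (0.00129) and in the fit with a replicate block (0.00277). Under these settings 57.9% to 71.8% of all genes passed. The other settings gave Lum adjusted p values up to 0.027, and leaving out 1 heart gave 0.00157 to 0.0327.

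Dcn differed much less, with 1081, 856, 1111 and 1029 CPM in EAM hearts and 882, 863, 1007 and 964 CPM in controls. Its groups overlapped, and its log2 fold change was 0.17 ± 0.11 (SE; 95% interval -0.08 to 0.43), and 0.28 without EAM replicate 2. Pi16, at chr17:29317680-29330593 on the plus strand, encodes peptidase inhibitor 16, which marks adventitial fibroblasts of many organs. EAM hearts had 149.9, 88.7, 131.6 and 167.2 CPM of it and controls 96.1, 92.7, 107.5 and 98.1 CPM. Replicate 2 was the lowest of all 8 hearts and the other 3 EAM hearts were above every control. The log2 fold change of Pi16 was 0.48 ± 0.17 (SE) and the adjusted p 0.0268 in edgeR's quasi-likelihood test, and leaving out 1 heart gave from 0.39 with an adjusted p of 0.0604 (without EAM replicate 4) to 0.67 with 0.000218 (without EAM replicate 2).

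Fbln1, Dpt and Tcf21 also overlapped between the groups at D15. Fbln1, at chr15:85205949-85286535 on the plus strand, encodes fibulin 1, a protein of basement membranes and elastic fibres, and was at 146.6 to 255.6 CPM in EAM hearts and 130.8 to 198.0 CPM in controls (log2 fold change 0.29 ± 0.18, SE). Dpt, at chr1:164796644-164824266 on the plus strand, encodes dermatopontin, a collagen-binding matrix protein. It was at 118.8 to 193.8 CPM against 192.9 to 204.7 CPM in controls, where 3 of 4 EAM hearts were below every control (log2 fold change -0.23 ± 0.14, SE). Tcf21, at chr10:22817281-22820174 on the minus strand, encodes the transcription factor that specifies cardiac fibroblasts from the epicardium. It was at 8.47 to 13.3 CPM in EAM hearts and 13.2 to 22.2 CPM in controls, with a log2 fold change of -0.36 ± 0.20 (SE). These 3 genes had adjusted p values of 0.172, 0.151 and 0.131 in edgeR's quasi-likelihood test. Single hearts set much of these values. Tcf21 had a log2 fold change of -0.15 without control replicate 1 and -0.20 without EAM replicate 2, Dpt one of -0.07 without EAM replicate 2, and Fbln1 one of 0.15 without EAM replicate 4.

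Scaling the libraries by their totals in place of TMM moved the median of all genes at D15 from 0.02 to 0.17 on the log2 scale. With that scaling 3 of the 10 genes passed the FDR upward (Pdgfra, Lum and Pi16) and 3 downward (Gsn, Scara5 and Dpep1), where the TMM split was 1 to 3 and where 39.2% of all genes passed upward and 25.6% downward with library totals. In bulk tissue fewer cells of a type and less RNA per cell cannot be told apart.

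Ratios of 2 genes within 1 heart do not depend on the scaling, and 4 were computed at each of 3 days after the levels had been seen. In D15 controls there were 4.69 to 5.01 Pdgfra reads per 100 Gsn reads, and in D15 EAM hearts 26.2, 35.1, 11.5 and 22.7. Every EAM heart was above every control, and the mean log2 ratio was higher by 2.19 (-2.18 ± 0.68 against -4.36 ± 0.04, SD, n = 4). The ratios were picked for these levels, so they are a description with no test. At D21 the counts were 13.7, 7.29, 6.23 and 24.5 Pdgfra reads per 100 Gsn reads in EAM hearts and 5.09 to 5.55 in controls, a log2 difference of 1.06. At D10 the ratio was 5.32 to 9.83 in EAM hearts and 4.72 to 6.33 in controls, with the highest value in replicate 1, the heart with the most Ptprc.

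Gsn was also lower against decorin in every EAM heart of D15 and D21. There were 186.7 to 215.8 Gsn reads per 100 Dcn reads in D15 controls and 45.4 to 107.7 in D15 EAM hearts, a mean log2 difference of -1.63. At D21 the ranges were 192.8 to 228.3 and 50.0 to 140.4, a log2 difference of -1.38. Neither pair of ranges overlapped. Scara5 kept nearer to Gsn, with 2.59 to 3.90 Scara5 reads per 100 Gsn reads in D15 EAM hearts and 2.50 to 2.95 in controls (log2 difference 0.21). At D21 that ratio was 2.79 to 4.37 in EAM hearts and 2.47 to 2.99 in controls, and at D10 2.29 to 2.51 and 2.51 to 3.31.

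**Figure D3:**
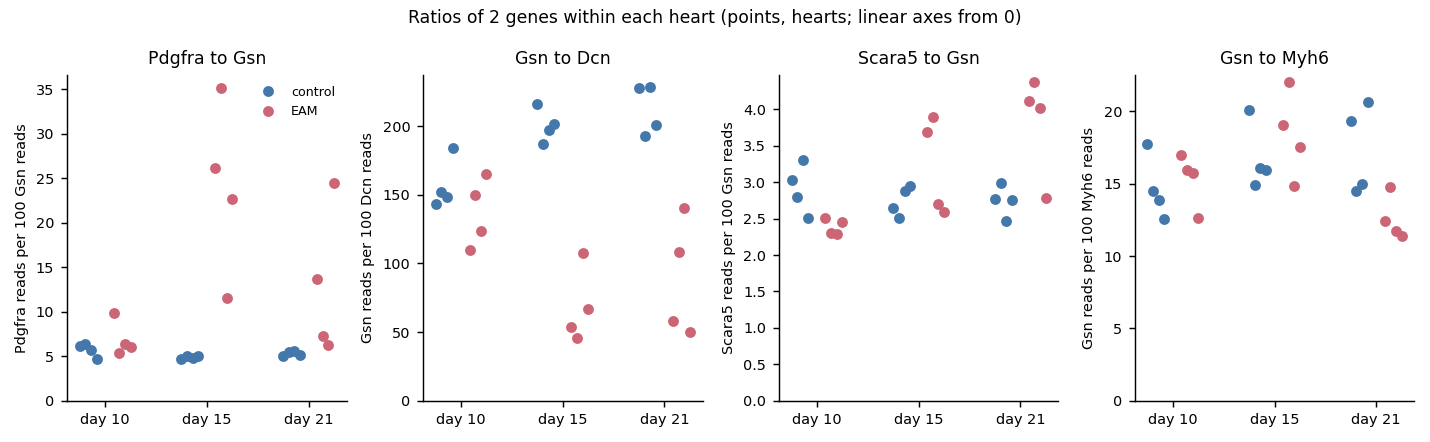
Reads of 1 gene per 100 reads of another within each heart, by day, with control hearts in blue and EAM hearts in red and axes from 0. Pdgfra per 100 Gsn reads runs from 11.5 to 35.1 in D15 EAM hearts and from 4.69 to 5.01 in their controls, while Gsn per 100 Myh6 reads overlaps at D15 (14.8 to 22.0 against 14.9 to 20.1).

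Genes of other cell types moved with the same hearts. Of 10 cardiomyocyte genes, 9 were lower in D15 EAM hearts at an FDR under 0.01 and 0 were higher, and their summed level was 8850 to 22484 CPM in EAM hearts and 33498 to 38912 CPM in controls. The tenth gene was Myh6, the cardiac myosin heavy chain from which the peptide is taken, with 3050, 1768, 8073 and 3930 CPM in EAM hearts and 9484 to 12328 CPM in controls (log2 fold change -1.38 ± 0.41, SE; adjusted p 0.0121 in edgeR's quasi-likelihood test). Ordered from high to low, the D15 EAM hearts were replicates 3, 4, 1 and 2 by Gsn and also by Myh6. The orders of Gsn and Myh6 were identical at D10 (2, 4, 3, 1) and at D21 (3, 2, 1, 4) as well, and Scara5 and Dpep1 had those same orders on both days, as did the endothelial gene Pecam1 at D10.

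Against Myh6, Gsn overlapped between the groups at D15. There were 14.8 to 22.0 Gsn reads per 100 Myh6 reads in EAM hearts and 14.9 to 20.1 in controls, with mean log2 ratios of -2.46 ± 0.24 and -2.59 ± 0.19 (SD, n = 4). At D21 the ratio was 11.4 to 14.8 in EAM hearts and 14.5 to 20.6 in controls (log2 difference -0.45), and at D10 12.6 to 17.0 and 12.5 to 17.7. Pdgfra went the other way from Myh6 at D15. The part of cardiomyocyte RNA in the levels of Gsn, Scara5 and Dpep1 was not tested.

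**Figure D4:**
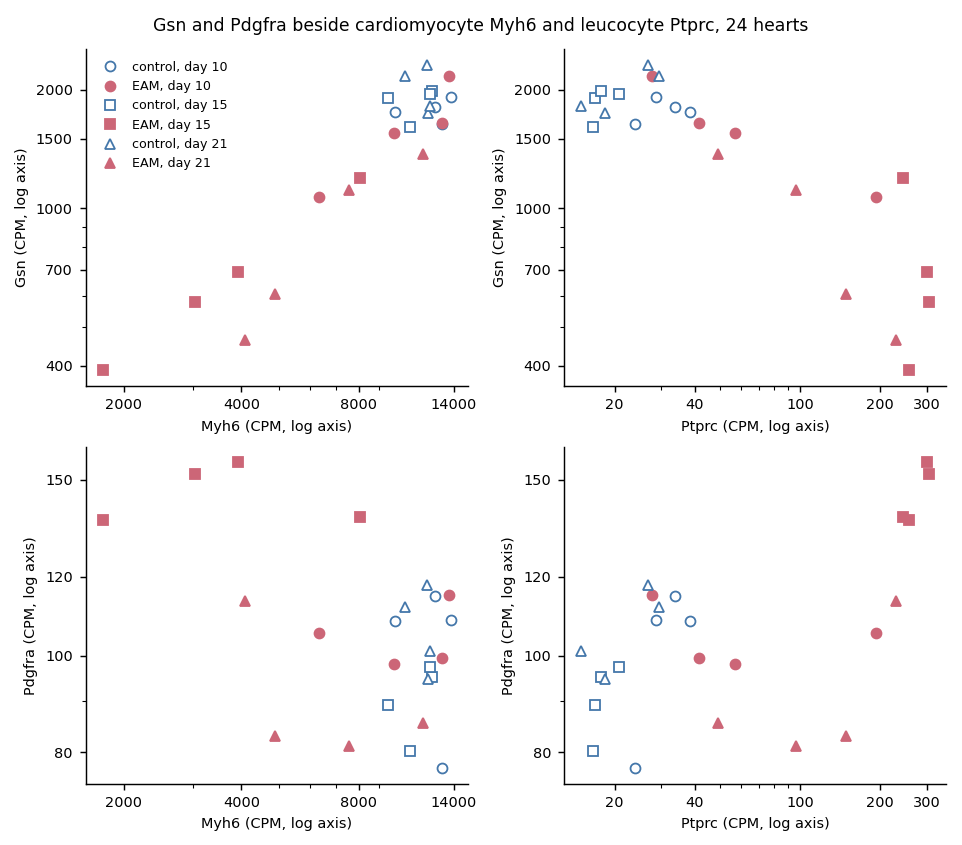
Gsn (upper row) and Pdgfra (lower row) against the cardiomyocyte gene Myh6 (left) and the leucocyte gene Ptprc (right) in 24 hearts, in CPM on log axes, with open blue symbols for control and filled red symbols for EAM hearts of D10 (circles), D15 (squares) and D21 (triangles). Hearts with little Myh6 have little Gsn, down to 1768 and 389 CPM in D15 EAM replicate 2, while the 4 D15 EAM hearts hold the 4 highest Pdgfra levels, from 136.7 CPM.

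Markers of vessels and other cells also differed at D15. Endothelial genes were lower for 8 of 10 past the FDR, and their sum was 1042 to 1215 CPM in EAM hearts and 1438 to 1813 CPM in controls. Mural cell genes were lower for 4 of 8 and higher for 1, summing to 639 to 1038 CPM and 1569 to 1984 CPM. Of 16 leucocyte genes tested, 14 were higher and 0 lower (sum 3738 to 5442 CPM against 478 to 567 CPM). Epicardial and mesothelial genes were higher for 1 of 8, Schwann cell genes higher for 1 and lower for 3 of 6, and adipocyte genes lower for 1 of 5. Endothelial genes lower past the FDR were 5 without control replicate 1 or 3 or EAM replicate 1 or 4, and Schwann cell genes were 1 without control replicate 1, 3 or 4 or EAM replicate 1 or 4. Mural cell genes higher past the FDR were 0 with the replicate block, without each D15 control in turn and without EAM replicate 2 or 4. Without EAM replicate 1 there were 2. Mural cell genes lower past the FDR were 3 to 5 when 1 heart was left out. None of the 5 atrial genes passed at D15. Their part in the D15 values of the 10 genes was not tested.

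At D10, 0 of the 10 genes passed the FDR of 0.01 in edgeR's quasi-likelihood test, as did 0% of all 15029 genes tested. In the likelihood ratio test 53 of all genes were higher and 2 lower, and in DESeq2 62 and 13, with 0 of the 10 genes in either. In the quasi-likelihood test the smallest adjusted p of the 10 genes was 0.328. By that test 2 of the 10 genes had an unadjusted p under 0.05, as had 15.3% of all genes. Those were Scara5 and Dpep1, with log2 fold changes of -0.46 ± 0.19 and -0.49 ± 0.19 (SE). Dpep1 was at 36.1, 75.9, 52.2 and 53.8 CPM in D10 EAM hearts and at 84.8, 76.3, 74.7 and 67.9 CPM in controls. Scara5 was at 26.9, 49.9, 35.4 and 40.3 CPM in EAM hearts and at 53.1, 50.6, 63.2 and 41.0 CPM in controls. Replicate 1, the heart with the most Ptprc, was the lowest EAM heart for both, and replicate 2 overlapped the controls for Dpep1. Compared with all 12 control hearts, Dpep1 passed the FDR at D10 (log2 fold change -0.62, adjusted p 0.00672), 1 of the 10 genes where 12.3% of all genes did. Mean Dpep1 was 87.5 CPM in D15 controls and 87.4 CPM in D21 controls, and 75.9 CPM in D10 controls. Day, atrial content and EAM therefore cannot be told apart in that comparison.

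The other 8 genes lay close to their controls at D10. Pdgfra was at 105.4, 115.1, 98.1 and 99.5 CPM in EAM hearts and at 108.4, 114.6, 108.7 and 77.1 CPM in controls, which overlapped. Gsn was at 1072, 2164, 1549 and 1647 CPM against 1758, 1812, 1910.1 and 1633 CPM, and again EAM replicate 1 was the lowest. Log2 fold changes of these 8 genes ran from -0.16 for Gsn to 0.29 for Fbln1, and the widest 95% interval among them was that of Fbln1, from -0.20 to 0.77. Both ends rested on single hearts: Gsn was at -0.004 without EAM replicate 1 and at -0.33 without EAM replicate 2, and Fbln1 at 0.43 and 0.06 without the same hearts and at 0.19 without control replicate 4. A change of 2-fold was outside the 95% interval of each of the 10 genes at D10.

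At D21 the hearts differed widely among themselves and 0 of the 10 genes passed the FDR of 0.01 in edgeR's quasi-likelihood test, where 7.81% of all 15266 genes did. That share changed when 1 heart was left out, and the part of the smaller group in this was not tested. It was 0% without control replicate 1, 2 or 3 and at most 0.285% without control replicate 4 or EAM replicate 1 or 2. Without EAM replicate 4 it was 4.94% and without EAM replicate 3 it was 27.0%. The smallest adjusted p was 0.026, for Gsn, and 2 of the 10 genes, Gsn and Lum, had an unadjusted p under 0.05, where 46.4% of all genes did. Gsn was at 606, 1114, 1374 and 463 CPM in D21 EAM hearts and at 2313, 1743, 1819.5 and 2162 CPM in controls. No EAM heart reached the lowest control. Its log2 fold change was -1.17 ± 0.32 (SE), 2.25-fold lower with an interval from -1.89 to -0.44. Gsn passed the FDR at D21 in the likelihood ratio test (adjusted p 0.00208), in DESeq2 (0.00174), with all 24 samples in 1 fit (0.00441), with 12 control hearts (0.000256) and without EAM replicate 3 (0.0052). Under these alternatives 21.7% to 43.3% of all genes passed the FDR. Leaving out 1 library in turn gave adjusted p values of Gsn up to 0.0779.

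Lum was at 294.8, 241.9, 215.8 and 230.6 CPM in D21 EAM hearts and at 190.0, 159.8, 163.8 and 209.1 CPM in controls. All EAM hearts were higher, by a log2 fold change of 0.47 ± 0.13 (SE), with an adjusted p of 0.0306 in edgeR's quasi-likelihood test. Lum passed the FDR at D21 in DESeq2 (adjusted p 0.00579) and with 12 control hearts (0.00114), where 26.7% and 43.3% of all genes passed. Leaving out 1 heart gave Lum adjusted p values from 0.0127 to 0.093 in edgeR's quasi-likelihood test. Lum was thus the gene higher without overlap (17.8% of all genes) and Gsn the gene lower without overlap (18.7%) among the 10 at D21.

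Scara5 and Dpep1 had the widest spread of the 10 genes at D21. Scara5 was at 24.9, 48.7, 55.2 and 12.9 CPM in EAM hearts and at 63.9, 52.0, 44.9 and 59.7 CPM in controls. Dpep1 was at 55.2, 99.5, 120.5 and 27.5 CPM against 95.4, 87.4, 72.4 and 94.3 CPM. For both, replicates 2 and 3 lay within or above the control range and replicates 1 and 4 below it. Replicate 4 had the most Ptprc (228 CPM), followed by replicate 1 (149.0), replicate 2 (96.3) and replicate 3 (48.9), the reverse of the order of Gsn, Scara5 and Dpep1. The log2 fold changes were -0.63 ± 0.38 for Scara5 and -0.20 ± 0.37 (SE) for Dpep1, and neither passed. Leaving out 1 library moved Scara5 from -0.92 (without EAM replicate 3) to -0.36 (without EAM replicate 4) and Dpep1 from -0.51 to 0.08 on leaving out the same hearts, and Dpep1 was at -0.35 without EAM replicate 2 and -0.08 without EAM replicate 1.

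Pdgfra was at 83.1, 81.2, 85.6 and 113.3 CPM in D21 EAM hearts and at 117.6, 94.7, 101.0 and 112.0 CPM in controls. The exception, replicate 4, was again the heart with the most Ptprc, and the other 3 EAM hearts were below every control. The log2 fold change was -0.20 ± 0.14 (SE), and -0.34 without replicate 4, with an adjusted p of 0.0271, while leaving out other hearts gave values up to -0.14. The other 5 genes had log2 fold changes from -0.32 for Tcf21 (-0.19 without EAM replicate 4) to 0.31 for Pi16 (0.17 without EAM replicate 1). Of the marker lists at D21, leucocyte genes were higher for 11 of 14, atrial genes lower for 5 of 5, endothelial, Schwann cell and adipocyte genes lower for 1 each of 10, 6 and 5, and cardiomyocyte, mural and epicardial genes had 0 past the FDR. Without D21 control replicate 1, 2 or 3 none of these marker genes passed, and with the replicate block 10 leucocyte genes were higher and 4 atrial, 3 adipocyte, 0 endothelial and 0 Schwann cell genes lower. Without EAM replicate 3, 2 cardiomyocyte, 2 mural, 4 endothelial and 3 adipocyte genes were lower, and 1 epicardial and 1 Schwann cell gene were higher. Their part in the D21 values was not tested, and atrial content and EAM cannot be told apart at D21.

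The effect of EAM on Pdgfra was higher at D15 than at D10 or D21 in a test of the change itself. In 1 fit of all 24 samples, its log2 effect of EAM was 0.65 ± 0.17 (SE) higher at D15 than at D10, with an adjusted p of 0.00467 in edgeR's quasi-likelihood test. From D15 to D21 it changed by -0.91 ± 0.17 (SE; adjusted p 0.00151). Among the 10 genes only Pdgfra passed in these comparisons, where 26.1% of all genes changed their effect from D10 to D15 and 12.1% from D15 to D21. When 1 library was left out, the first share ran from 15.6% (without D10 EAM replicate 2) to 41.6% (without D10 EAM replicate 1) and the second from 5.65% (without D21 EAM replicate 2) to 24.4% (without D21 EAM replicate 4). With the replicate number as a block within each day the shares were 25.9% and 1.88%, and Pdgfra passed for both changes. The D10 to D15 change of Pdgfra is close to the threshold: leaving out D10 control replicate 1, 2 or 3, D10 EAM replicate 3 or 4, or D15 control replicate 2 gave adjusted p values from 0.0102 to 0.0119, with changes of 0.59 to 0.63.

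The effect on Gsn moved by -1.24 ± 0.43 (SE) from D10 to D15 (adjusted p 0.0239), and passed the FDR without D10 EAM replicate 1 (-1.39, adjusted p 0.00975) or D15 EAM replicate 3 (-1.60, adjusted p 0.00299). From D15 to D21 it moved by 0.21 ± 0.43 (SE), and that value turned to -0.03 without D15 EAM replicate 2 and to -0.08 without D21 EAM replicate 3. Scara5 and Dpep1 moved by 0.60 ± 0.44 and 0.64 ± 0.41 (SE) from D15 to D21 and did not pass, with 0.31 to 0.88 and 0.32 to 0.92 when 1 library was left out, the lowest of both without D21 EAM replicate 3. Without D21 EAM replicate 2 the change for Scara5 was 0.38. Between D10 and D21 the effect changed past the FDR for 0 of 10 genes and for 0.913% of all genes.

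Apart from the groups, the 10 genes varied from heart to heart in blocks. After each group's mean was subtracted, Scara5 and Dpep1 had a Pearson correlation of 0.94 over the 24 hearts, Gsn and Scara5 of 0.92 and Gsn and Dpep1 of 0.82. Dcn and Pi16 (0.87) and Pi16 and Fbln1 (0.87) formed another close set. Pdgfra stood apart, with 0.15 against the mean of the other 9 genes, where the others had 0.49 (Lum) to 0.85 (Pi16), and with -0.20 against Dpep1. These are descriptions: hearts of a group also differed in leucocyte and muscle RNA.

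The non-member most like the mean of the 10 genes, by the same measure among 14270 genes, was Clec3b with a Pearson correlation of 0.93. It was followed by Cygb (0.91), C1qtnf7 (0.87), Scn7a (0.87), Entpd2 (0.87), Adamtsl3 (0.87), Wnt11 (0.86), Kcna6 (0.84), Ephb4 (0.84) and Sgce (0.84). Clec3b encodes tetranectin, a plasminogen-binding protein, and Cygb encodes cytoglobin, a globin of fibroblasts and stellate cells.

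Relatives of the 10 genes were counted by family at D15, to be read beside the 33.2% of all genes that were higher and the 31.1% that were lower. Among 14 small leucine-rich proteoglycans tested, the family of Dcn and Lum, 2 were higher and 5 lower past the FDR, with a median log2 fold change of -0.49 beside 0.02 over all genes. Bgn, which encodes biglycan, rose from 480.4 ± 38.9 to 1215 ± 304 CPM (SD, n = 4; log2 fold change 1.38), and Podnl1 from 0.512 to 6.08 CPM (3.60). Ogn (-1.38), Ecm2 (-1.50), Omd (-1.69), Prelp (-0.81) and Chad (-1.34) fell. Ogn encodes osteoglycin, and it went from 224.8 ± 9.94 to 84.1 ± 18.6 CPM.

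Among 7 PDGF ligands and receptors, 4 were higher and 1 lower, with a median of 0.64. Pdgfa, a ligand of Pdgfra, rose by a log2 fold change of 0.64, Pdgfc by 0.93 and the receptor-like Pdgfrl by 2.45, while the ligand gene Pdgfd fell by 0.78. Pdgfrb, the receptor of mural cells, did not pass (0.32, adjusted p 0.05 in edgeR's quasi-likelihood test). In the gelsolin superfamily 1 of 7 was higher and 3 lower. Capg, a capping protein of macrophages, rose from 18.8 ± 0.70 to 209.8 ± 44.3 CPM (log2 fold change 3.52), opposite to Gsn, while Svil (-0.68) and the low-level Vil1 (-1.82), named after its value was seen, fell. Among 4 class A scavenger receptors Scara5 was the only one lower, and Msr1, the scavenger receptor of macrophages (4.53), Scara3 (1.47) and Colec12 (0.93) were higher. Of 5 genes of dipeptidases and leukotriene D4 metabolism, Dpep2 (4.60), a dipeptidase of leucocytes, and the low-level Ggt1 (3.34), named after its value was seen, were higher and Dpep1 was lower.

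Of 19 fibulins and elastic fibre proteins, the family of Fbln1, 11 were higher and 3 lower, with a median of 1.39. Emilin2 (3.30), Ltbp2 (2.95) and Fbn2 (2.16) had the largest rises, and Ltbp4 (-1.48), Hmcn1 (-1.14) and Ltbp1 (-0.98) fell. In the CAP superfamily of Pi16, 3 of 6 were higher and 2 lower. Glipr1 (4.37), Glipr2 (2.91) and Crispld2 (0.49) rose, and Crispld1 (-1.92) and the low-level Clec18a (-2.49), named after its value was seen, fell. Of 17 transcription factors of the fibroblast lineage, 5 were higher and 6 lower, near the shares of all genes, with Egr1 (1.22), Twist1 (1.16) and Osr1 (0.96) the largest rises and Tcf15 (-2.36), Gata4 (-1.05) and Meox2 (-1.03) the largest falls. Without 1 library there were 2 transcription factors higher (without D15 control replicate 2 or 4) and 3 proteoglycans lower (without D15 control replicate 3 or EAM replicate 1).

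The wider fibroblast lists were counted in the same way at D15. Of 30 other cardiac fibroblast genes, 15 were higher and 3 lower, with a median of 0.45. The fibrillar collagen gene Col1a1 rose from 186.0 ± 29.7 to 3950 ± 1606 CPM (SD, n = 4; log2 fold change 4.45), Col1a2 by 3.64 and Col3a1 by 3.30. Abca8a (-1.77), Smoc2 (-0.86) and Htra3 (-0.66) fell. Of 18 myofibroblast and activation genes 11 were higher and 1 lower, with Tnc (6.78), Timp1 (6.40) and Cthrc1 (6.14) at the top. The 1 that fell was Acta2, the smooth muscle actin that is used as the myofibroblast marker, from 625.5 ± 113 to 213.2 ± 20.4 CPM (log2 fold change -1.51). The summed level of the mural cell genes was also lower in these hearts, and its part in the Acta2 value was not tested. Of 20 adventitial-type fibroblast genes, which include Pi16 and Dpt, 6 were higher and 7 lower, with a median of 0.10, close to the shares of all genes. Has1 (3.94), Mfap5 (1.94) and Anxa3 (1.63) were at one end and Opcml (-2.25), Penk (-2.14) and Igfbp6 (-1.12) at the other.

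**Figure D5:**
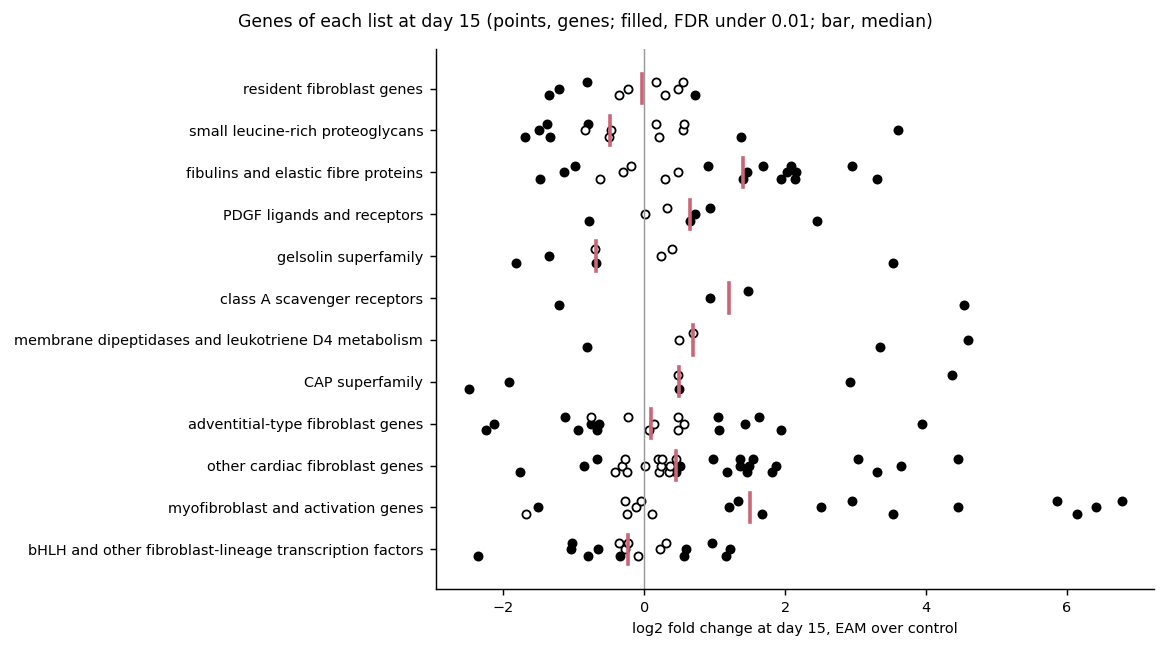
Log2 fold change of EAM over control hearts at D15 for each gene of the 10 resident fibroblast genes and of 11 lists of related genes; filled points have an FDR under 0.01 in edgeR's quasi-likelihood test and red bars are medians. The 10 genes run from -1.35 to 0.73 with a median of -0.03, while the myofibroblast list reaches 6.78 and has a median of 1.50.

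At D10 none of these lists had a gene past the FDR in edgeR's quasi-likelihood test, as none of all genes did in that test. At D21, where 7.81% of all genes passed in either direction against 64.4% at D15, the lists had 8 higher and 2 lower of 18 myofibroblast genes, 4 higher and 1 lower of 30 other cardiac fibroblast genes, 1 higher and 2 lower of 13 small leucine-rich proteoglycans, 2 higher of 19 fibulins and elastic fibre proteins, and 2 lower of 20 adventitial-type genes. The lower gene among the other cardiac fibroblast genes was Dkk3, which is also on the atrial list. The PDGF (Pdgfrl), gelsolin (Capg), dipeptidase (Dpep2) and CAP (Glipr1) lists each had 1 gene higher, and the scavenger receptor and transcription factor lists had 0. None of the listed genes passed without D21 control replicate 1, 2 or 3. With the replicate block 5 myofibroblast genes were higher, with Tnc, Fn1 and Thbs4 lost. Of the adventitial-type genes 1 was then lower, with Sema3c lost, and 1 higher, and 3 fibulins and elastic fibre proteins were higher. Without D21 EAM replicate 3, where 27.0% of all genes passed, 12 other cardiac fibroblast genes, 7 fibulins and elastic fibre proteins and 4 adventitial-type genes were higher. In that fit 5 small leucine-rich proteoglycans and 2 transcription factors were lower. Col1a1 (3.20), Col1a2 (2.75) and Col3a1 (2.57) were higher in the D21 comparison of all 8 hearts, while Dcn had a log2 fold change of 0.09 ± 0.12 (SE).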

How the data were processed

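RNA-seq counts from 24 mouse hearts were used. The authors prepared stranded libraries, mapped read pairs to GRCm38 with HISAT2 (2.0.4 in the submitters' processing notes), removed duplicates with Picard and assigned reads to Ensembl genes with featureCounts, and the deposited counts are not normalized. Whether featureCounts used strand was not given in the sources used here. Mir7025 shares 30 exon bases with Pdgfra and had 36 reads in all 24 hearts, and the antisense genes on the exons of Pdgfra and Pi16 were not used here.

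The main fits used edgeR 4.0.16 in R 4.3.3, with limma 3.58.1 and DESeq2 1.42.0 for alternatives. For each day, genes were kept when 4 or more of its hearts had 10 or more reads, scaled by TMM and compared with edgeR's quasi-likelihood test. P-values were adjusted after Benjamini and Hochberg over all genes tested. Genes under an FDR of 0.01 were past the test, and those with a 2-fold change as well were called. Changes of the EAM effect and differences between controls were contrasts in 1 fit of all 24 samples, with no fold limit. The scripts were tested on simulated data. Levels are TMM-normalized CPM, with factors from all 24 samples; levels per kb use exon lengths of GENCODE M21. Ratios of 2 genes within a heart were chosen after the levels were seen and not tested. Tables and plots were made in Python 3.11.15 with pandas 2.3.3, scipy 1.17.1 and matplotlib 3.10.9.

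The 10 genes, the related lists and the marker lists were chosen with earlier results of these data known. Genes named are the 10, at most 3 genes of each list with the largest and 3 with the smallest log2 fold change at D15 among those past the FDR with a mean of at least 1 CPM, the defining markers, the 10 genes most like the mean of the 10 by within-group deviations of log2(CPM + 1), and those said to be named after their values were seen. The lists were described by counts and medians and not tested as sets. Biological variation between hearts, as edgeR's median over genes, came to 12.1% at D15, 16.5% at D10 and 17.7% at D21.

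What the replicate numbers stand for is not in the labels, nor that the hearts of a group are more than separate samples, so p-values measure the spread between these samples. Once group means were subtracted, an EAM and a control heart with 1 number in common correlated over 0.1 in 2 of 4 pairs at D10, in 0 of 4 at D15 and in 4 of 4 at D21 (0.101 to 0.307). Pairs of unlike numbers were not compared, and at D21 an EAM and a control heart of the same number carry different library codes. Whether the numbers mark pairs was therefore not settled, and the block is given as an alternative only. At D21 the block changed no call among the 10 genes. Alternatives were other tests, normalizations, filters, limits and control sets, a replicate block, and leaving out each library.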

Additional observations from a re-analysis of the deposited data

Results flagged for a closer look

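Of 60 groups of 4 hearts examined (10 genes in 6 groups), 5 had 1 heart farther from the rest than Dixon's limit allows, and chance gives about 1 in 20 groups. Pdgfra was lowest in D10 control replicate 4, at 77.1 CPM where the other 3 hearts had 108.4 to 114.6 CPM. Without that heart its log2 fold change at D10 went from 0.02 to -0.09. Pdgfra was highest in D21 EAM replicate 4, at 113.3 CPM where the others had 81.2 to 85.6 CPM; that heart also had the most Ptprc of its group, 228 CPM, and the part of leucocyte content in the difference was not tested.

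Tcf21 was highest in replicate 1 of both the D10 controls (17.1 CPM, others 12.3 to 13.1) and the D15 controls (22.2 CPM, others 13.2 to 14.0). In D15 EAM replicate 2 it was at 8.47 CPM, where the others had 13.0 to 13.3 CPM. That heart was also the lowest of its group for Gsn (389 CPM), Scara5 (15.2 CPM) and Myh6 (1768 CPM).

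The EAM effect on Pdgfra differed between days, by 0.65 on the log2 scale from D10 to D15 and by -0.91 from D15 to D21, both past an FDR of 0.01 in edgeR's quasi-likelihood test of the change over all 24 samples. The 4 D21 EAM libraries have a library code of their own, so for the second change code and EAM at D21 cannot be told apart.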

How the results depend on the processing

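At D15, 2 of the 10 genes were called under the other tests, normalizations, filters and control sets and with the replicate block. Without a fold limit there were 4. Leaving out 1 library gave 1 to 2, with Gsn lost without EAM replicate 1 or 4. The block took Lum past the FDR at D15 (log2 fold change 0.52, adjusted p 0.00277 in edgeR's quasi-likelihood test). Same-numbered hearts of that day did not correlate over 0.1. The block changed no other call among the 10 genes. Over all genes at D21 the block gave 635 higher and 226 lower in place of 719 and 473, and the blocked and left-out counts of the lists were added after the values were seen.

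At D21, 0 genes were called, and 1 was, Gsn, in the likelihood ratio test, in DESeq2, with all 24 samples in 1 fit, with 12 controls and at an FDR of 0.05. Leaving out 1 library gave 0 to 1. At D10, 0 were called under each alternative. For the change of effect from D10 to D15, 1 gene passed, 2 at an FDR of 0.05, and 0 to 2 when 1 library was left out. From D15 to D21 it was 1 under each alternative run, and from D10 to D21 and between controls 0.

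Effects near 0 turned in sign. At D10, Dpt had a log2 fold change of 0.01 and was at -0.003 with limma-voom, -0.007 with upper-quartile scaling and -0.0103 with the replicate block, and Tcf21 went from 0.01 to -0.0022 with upper-quartile scaling and to -0.16 with 12 controls. At D21, Fbln1 went from -0.09 to 0.0054 with 12 controls. Leaving out 1 library at D10 gave -0.0897 to 0.138 for Dpt, -0.0919 to 0.0803 for Pdgfra, -0.0905 to 0.132 for Tcf21, -0.101 to 0.0937 for Dcn, -0.0371 to 0.236 for Lum and -0.0201 to 0.265 for Pi16. At D21 it gave -0.229 to 0.0522 for Dpt, -0.508 to 0.0758 for Dpep1 and -0.246 to 0.0635 for Fbln1. The change of the Gsn effect from D15 to D21 ran from -0.083 to 0.574, and the log2 ratio of Gsn to Myh6 at D10 from -0.0064 to 0.16. The cause was not tested in any of these.

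Groups of 4 hearts, a portion of the heart that differed in atrial content, EAM hearts picked for inflammation and a separate library code for D21 EAM limit these comparisons. Intervals cover the spread between hearts in these libraries only.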

Other observations

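Some genes of the matrix lists fell at D21 together with the atrial genes. Sln (log2 fold change -7.95), Myl7 (-7.41), Myl4 (-6.64), Nppa (-2.45) and Dkk3 (-2.44) were lower in D21 EAM hearts, and so were Cilp2 (-6.37), Comp (-2.17), Chad (-3.12), Podn (-1.64), Opcml (-3.01) and Sema3c (-0.76), all past an FDR of 0.01 in edgeR's quasi-likelihood test of all 8 hearts. None of these genes passed without D21 control replicate 1, 2 or 3. Cilp2 had too few reads to be tested in those fits, and its adjusted p was at most 0.00659 in every left-out fit that tested it. With the replicate block Nppa (adjusted p 0.0122) and Sema3c (0.0107) did not pass. Comp and Chad encode proteins best known from cartilage and tendon. These genes were named after their values were seen, and the part of atrial content in their values was not tested. Among the 10 resident fibroblast genes, 0 passed in the same comparison.

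The 10 genes together summed to 3283 to 3922 CPM in D15 controls and to 2008 to 3207 CPM in D15 EAM hearts. Without Gsn and Dcn the sums overlapped, at 810.3 to 931 CPM in controls and 763 to 1109 CPM in EAM hearts, and Dcn had a log2 fold change of 0.17, so the lower sum was that of Gsn.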
